A study of Homo sapiens with 2 samples.

Results

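The genes described here are 10 genes of squamous differentiation, the programme by which stratified epithelia build a tough, crosslinked surface. They are SFN, the galectin-7 copies LGALS7 and LGALS7B, SPRR1A, SPRR1B, IVL, DMKN, KRTDAP, TGM1 and CSTA. They were chosen by symbol, through the Ensembl identifiers that GENCODE release 44 pairs with these names, and make up 10 of the 58735 gene identifiers in each count table. The RNA came from MCF10a-Snail-ER cells, a derivative of the non-tumorigenic human mammary epithelial line MCF10a that stably expresses the repressor Snail fused to the estrogen receptor. The cells grew in DMEM/F-12 medium with horse serum, EGF, hydrocortisone, cholera toxin and insulin, and received 100 nM tamoxifen for 1 day, which starts an epithelial-to-mesenchymal transition. Polyadenylated RNA was read in 1 Nanopore direct RNA library, in which native RNA strands are sequenced, and in 1 Illumina TruSeq stranded mRNA library, made from fragmented RNA copied into cDNA. Both libraries thus carry the same fusion and the same treatment, and neither an untreated nor a parental sample was analysed here. The labels do not say what drives the fusion or whether the line is 1 clone.

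In stratified epithelia, basal cells that leave the basement membrane switch on envelope proteins in sequence. Involucrin (IVL) and the small proline-rich proteins (SPRR1A, SPRR1B) are laid under the membrane and crosslinked by transglutaminase 1 (TGM1), together with cystatin A (CSTA), a cysteine protease inhibitor. Dermokine (DMKN) and the keratinocyte differentiation-associated protein (KRTDAP) are secreted by differentiating keratinocytes, galectin-7 is a lectin of stratified epithelia, and stratifin (SFN, the 14-3-3 sigma protein) is an epithelial adaptor protein induced by p53. Mammary basal cells share many regulators and keratins with the basal layer of the skin.

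Sequencing depth was 403235 counts for Nanopore and 191741714 for Illumina, a 476-fold difference. Levels are given as counts per 1000000 counts of the library (CPM), so 1 count equalled 2.48 CPM by Nanopore and 0.00522 by Illumina. The limit that a count of 0 allows, taken as 3 counts, was 7.44 CPM for the Nanopore depth and 0.0156 CPM for the Illumina depth. With 1 library per platform there is no spread between replicates, so intervals and tests cover only the counting error of this pair of libraries. All 6 markers of basal mammary epithelium that were looked up were present in both libraries, with summed levels of 3260 CPM (Nanopore) and 3310 CPM (Illumina). Of 6 luminal markers, 5 had at least 1 count in each library, with sums of 689 and 548 CPM. The keratins KRT8 and KRT18 held most of both sums, with 209 and 322 CPM by Illumina. The others had 12.9 (GATA3), 4.02 (EPCAM), 0.459 (KRT19) and 0 CPM (ELF5) by Illumina, and KRT19 had 1 Nanopore count. Markers of other cell types were low: the sums by Illumina were 33.8 CPM for 6 fibroblast genes, 11.1 CPM for 6 leukocyte genes, 6.61 CPM for 4 endothelial genes and 1.14 CPM for 3 adipocyte genes. In bulk RNA, fewer cells that express a gene and less RNA per cell cannot be told apart.

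The galectin-7 copies are shown first, because how their reads can be assigned bears on the only 4-fold difference called among these genes. LGALS7 lies on chromosome 19 from 38770968 to 38773517 (hg38, minus strand) and LGALS7B from 38789200 to 38791754 on the plus strand. Their coding sequences have 411 bases each and differ at 1 base, G144C, where G is the base in LGALS7, C is the base in LGALS7B and positions count from 1 at the A of the start codon. The change leaves the amino acid the same. The stretch of coding bases 104 to 184 around it is printed 5′ to 3′ from the GENCODE transcripts, with the differing base in capitals. It lies at chr19:38771942-38772022 on the minus strand and chr19:38790697-38790777 on the plus strand.
LGALS7: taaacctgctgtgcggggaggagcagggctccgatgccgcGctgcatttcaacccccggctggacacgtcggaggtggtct
LGALS7B: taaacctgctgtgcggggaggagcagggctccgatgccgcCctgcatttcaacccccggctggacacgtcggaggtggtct
Of the 445 windows of 50 bases in the main (MANE Select) transcript of LGALS7, 88.8% also occur in LGALS7B, and of its 395 windows of 100 bases, 74.7% do. The values for LGALS7B are 87.8% and 73.8%, and LGALS7 is the other gene there.

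SPRR1A and SPRR1B, both on chromosome 1 (152984081 to 152985814 and 153031203 to 153032900, hg38, plus strand), are the other paralog pair. Their coding sequences of 270 bases differ at 10 bases, an identity of 96.3%. Coding bases 121 to 240, part of the proline-rich tandem repeats, are printed 5′ to 3′ with the 5 differing bases in capitals, at chr1:152985351-152985470 and chr1:153032466-153032585.
SPRR1A: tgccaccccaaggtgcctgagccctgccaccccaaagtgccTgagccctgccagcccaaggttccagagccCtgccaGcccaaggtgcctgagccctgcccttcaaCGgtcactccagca
SPRR1B: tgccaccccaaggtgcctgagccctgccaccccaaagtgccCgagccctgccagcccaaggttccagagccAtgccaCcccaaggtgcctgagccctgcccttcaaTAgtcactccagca
Only 7.85% of the 50-base windows of the SPRR1A transcript recur in SPRR1B, and none of its 100-base windows do. For the other 6 genes, SFN, IVL, DMKN, KRTDAP, TGM1 and CSTA, no 50-base window of the MANE Select transcript occurs in another annotated gene. No member aligned to the 261 alternate contigs of the hg38 sequence used here. IVL alone overlaps another annotated gene body, a lncRNA on the opposite strand that was not analysed here.

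Levels ranged from 281 CPM (SFN) to 0 (KRTDAP) by Illumina, with 5 of the 10 genes at or under 1 CPM. By Illumina 9 of the 10 genes had at least 1 count and by Nanopore 4 did. Over all protein-coding genes in the tables, 78.3% had an Illumina count and 59.2% had a Nanopore count. SFN, CSTA and DMKN together held 98.4% of the Illumina counts of the 10 genes and 97.6% of the Nanopore counts. All 10 genes took 0.0516% of the Nanopore library (208 counts, 95% Wilson interval 0.0450 to 0.0591%) and 0.0569% of the Illumina library (109127 counts, 0.0566 to 0.0573%). The Nanopore interval contains this Illumina share, but not the shares after division by length: 0.102% by union exonic, 0.0704% by mean transcript and 0.0838% by MANE Select length.

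**Figure D1:**
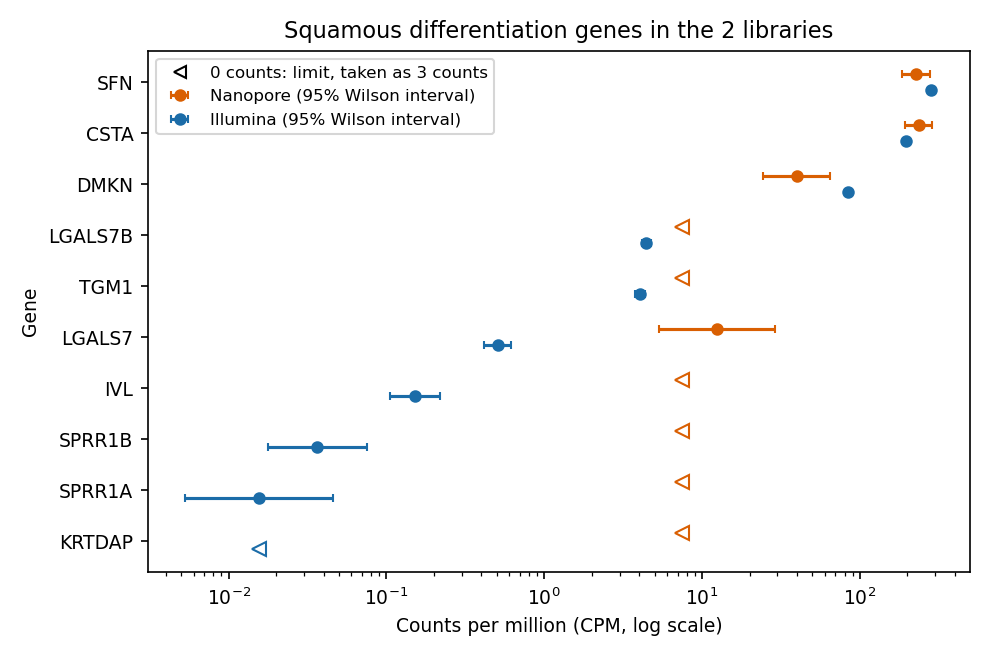
Level of each gene in CPM (log axis) by Nanopore (orange) and Illumina (blue), 1 library each, with 95% Wilson intervals for counting error. Open triangles mark the limit that a count of 0 allows, taken as 3 counts: 7.44 CPM by Nanopore, above the Illumina level of every gene without a Nanopore count.

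SFN, an adaptor that binds phosphorylated proteins, is a gene of 1 exon and 1308 bases on chromosome 1 (26863149 to 26864456, hg38, plus strand). It had 92 Nanopore counts, or 228 CPM (95% Wilson interval 186 to 280), and 53904 Illumina counts, or 281 CPM (279 to 284). The Nanopore level was 0.812 times the Illumina level (exact interval 0.654 to 0.996). On the log2(CPM + 1) scale used for all ratios here, Nanopore over Illumina, this was −0.30, and the exact conditional binomial test gave p = 0.0448 and an adjusted p of 0.0864 (Benjamini-Hochberg over 12414 genes). The difference did not pass the threshold of 0.05. By raw count SFN ranked 606 among all genes by Nanopore and 524 by Illumina.

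CSTA (chromosome 3, 122325248 to 122341969, hg38, plus strand), the protease inhibitor of the envelope, had 95 Nanopore counts, 236 CPM (193 to 288), and 37339 Illumina counts, 195 CPM (193 to 197). Its Nanopore level was 1.21 times the Illumina level (0.979 to 1.48). The log2 ratio was 0.27, and the exact test gave an adjusted p of 0.138. On this scale the difference did not pass the threshold. It did so after scaling by TMM or by the median ratio (0.36 and 0.40, exact adjusted p = 0.0463 and 0.0265), and with the 3 divisions by length, given further on, it passed in the opposite direction. Its rank by raw count was 584 by Nanopore and 835 by Illumina.

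DMKN (chromosome 19, 35497220 to 35513658, hg38, minus strand), which encodes the secreted dermokines, has 68 annotated transcripts of 271 to 2811 bases. It had 16 Nanopore counts, 39.7 CPM (24.4 to 64.5), and 16125 Illumina counts, 84.1 CPM (82.8 to 85.4). The Nanopore level was 0.472 times the Illumina level (0.270 to 0.766). The log2 ratio was −1.06, and the exact test gave an adjusted p of 0.00312. DMKN was thus lower by Nanopore by the adjusted p, but not by 4-fold.

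LGALS7 had 5 Nanopore counts, 12.4 CPM (5.30 to 29.0), and 97 Illumina counts, 0.506 CPM (0.415 to 0.617). LGALS7B had 0 Nanopore counts and 849 Illumina counts, 4.43 CPM (4.14 to 4.74). The copies were therefore ordered oppositely: every Nanopore count went to LGALS7, and 89.7% of the Illumina counts (87.6 to 91.5%) went to LGALS7B. The Nanopore share of LGALS7B was 0 of 5 counts, with an upper Wilson bound of 43.4%. Fisher's exact test, two-sided, of the copies by library gave p = 1.30e-05. SPRR1A and SPRR1B had no Nanopore count, so this was the only pair that could be tested and its adjusted p is the same.

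**Figure D2:**
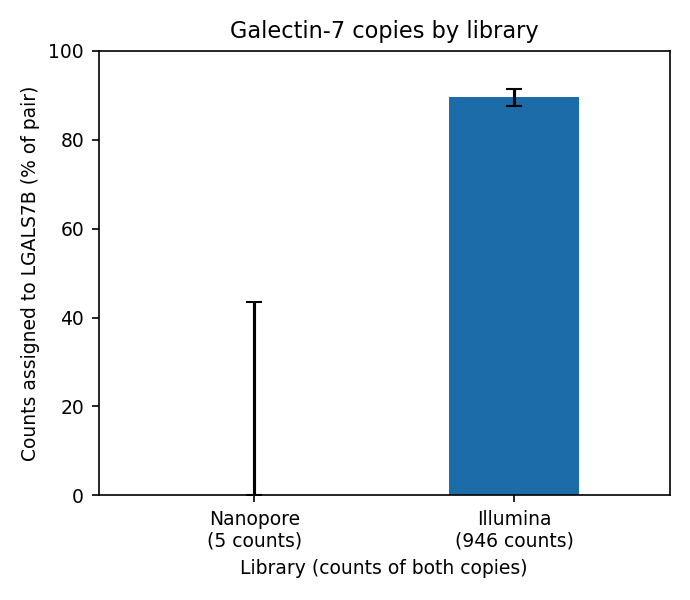
Share of the galectin-7 counts assigned to LGALS7B (percent of both copies, bars from 0, 95% Wilson intervals) in each library. The Nanopore bar is at 0 of 5 counts and its interval reaches 43.4%, below the Illumina bar at 89.7% of 946 counts.

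By itself, LGALS7 had a log2 ratio of 3.15 with an exact adjusted p of 2.66e-05, a 24.5-fold higher level by Nanopore (exact interval 7.78 to 59.2). It was tested only because its Nanopore level lifted the mean of the libraries to 6.45 CPM, above the minimum of 5 CPM. At its Illumina level, any Nanopore level that reaches this minimum is over 4-fold higher, so the 4-fold ratio follows from the filter. The adjusted p and the interval come after the same filter, so they are no separate evidence of a difference. With both copies summed, galectin-7 stood at 12.4 CPM in the Nanopore library (5.30 to 29.0) and 4.93 CPM in the Illumina library (4.63 to 5.26). That is a 2.51-fold ratio with an interval of 0.814 to 5.89, and the summed gene was not called. How the authors treated reads that fit both copies is not given in the sources used here, and its part in the result was not tested.

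TGM1 (chromosome 14, 24249114 to 24264432, hg38, minus strand), the enzyme that crosslinks the envelope, had 774 Illumina counts, 4.04 CPM (3.76 to 4.33), and 0 Nanopore counts. At the Illumina share, 1.63 Nanopore counts would be the mean, and 1.79 for LGALS7B. Both genes lie under the limit that a Nanopore count of 0 allows, so no difference between the libraries was shown for them. IVL (chromosome 1, 152908546 to 152911886, hg38, plus strand), the early scaffold of the envelope, had 29 Illumina counts, 0.151 CPM (0.105 to 0.217). SPRR1B had 7 Illumina counts, 0.0365 CPM (0.0177 to 0.0754), and SPRR1A had 3, 0.0156 CPM (0.00532 to 0.0460), which is the limit that a count of 0 allows. IVL, SPRR1A and SPRR1B had 0 Nanopore counts. KRTDAP (chromosome 19, 35487324 to 35495558, hg38, minus strand) was listed at 0 in both libraries, where a count of 0 allows up to 0.0156 CPM by Illumina.

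Read against all genes, 1 of the 4 tested members (LGALS7) was 4-fold higher by Nanopore and 0 were 4-fold higher by Illumina. Among all 12414 tested genes, those whose mean over the libraries reached 5 CPM, these shares were 12.9% and 7.31%. For LGALS7 the minimum mean was itself enough to give a 4-fold ratio, so its call adds nothing to this comparison. By the adjusted p alone, 1 member (LGALS7) was higher by Nanopore and 1 (DMKN) higher by Illumina, against 20.2% and 27.2% of all tested genes. The direction for LGALS7 again follows from the filter, so LGALS7 adds nothing here either. The median log2 ratio of the 4 tested members was −0.01, and that of all tested genes −0.42 (quartiles −1.18 and 0.54). The 4 include LGALS7, which was tested only through its Nanopore level. With a minimum of 5 CPM by Illumina alone, which leaves LGALS7 out, the median of the 3 tested members was −0.30. The median of all genes under that minimum is not given here. The other 6 members did not reach the minimum.

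Levels of different genes can be compared only per length in the fragmented Illumina library. Divided by the MANE Select transcript length (transcripts per 1000000, TPM), the Illumina order was CSTA at 412 TPM, SFN at 339, DMKN at 68.9, LGALS7B at 14, TGM1 at 2.32, LGALS7 at 1.61, IVL at 0.111, SPRR1B at 0.0929 and SPRR1A at 0.0380. The places of LGALS7B and LGALS7 carry a further limit, as most of their sequence is shared and the treatment of such reads is not given. Of the 8 neighbouring pairs in this order, 6 differed beyond counting error. IVL against SPRR1B (exact binomial adjusted p = 0.857) and SPRR1B against SPRR1A (adjusted p = 0.351) did not. CSTA and SFN changed places in CPM and with union exonic length (SFN 582 and CSTA 386 TPM), so their order depended on the length used. The Nanopore order, by counts, was CSTA, SFN, DMKN and LGALS7. CSTA and SFN did not differ there (95 against 92 counts, exact binomial adjusted p = 0.884). DMKN lay below SFN by 5.75-fold (adjusted p = 1.13e-13), and LGALS7 below DMKN by 3.20-fold (adjusted p = 0.0399, exact binomial tests over 3 neighbouring pairs).

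The ratio of the libraries depended on how length was handled. For genes with at least 1000 and under 2000 exonic bases, among them SFN and CSTA, the median log2 ratio was 0.49 over 1034 tested genes. It was 2.11 over 658 genes from 500 to under 1000 bases, among them LGALS7, and −0.71 over 5564 genes from 4000 to under 10000 bases, among them DMKN. With the Illumina values as TPM by MANE Select length, CSTA reversed to −0.80 (exact adjusted p = 1.87e-08) and SFN became −0.57 (adjusted p = 0.000279). By union exonic length SFN was −1.35 (exact adjusted p = 7.93e-25) and CSTA −0.71 (adjusted p = 1.28e-06). By mean transcript length SFN was −0.18 (exact adjusted p = 0.412) and CSTA −0.34 (adjusted p = 0.0489). By MANE Select length DMKN kept its direction at −0.78, with an exact adjusted p of 0.0542. DMKN reversed to 0.36 (exact adjusted p = 0.530) by the union of its exons, 7444 bases, and was −1.70 (adjusted p = 4.43e-08) by its mean transcript length, 772 bases. LGALS7 ranged from 1.66 with a pseudocount of 5 CPM to 4.37 with 0.1 CPM under the 7 other scales and pseudocounts. It was tested only through its Nanopore level, so its sign under these settings is no test of the difference.

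**Figure D3:**
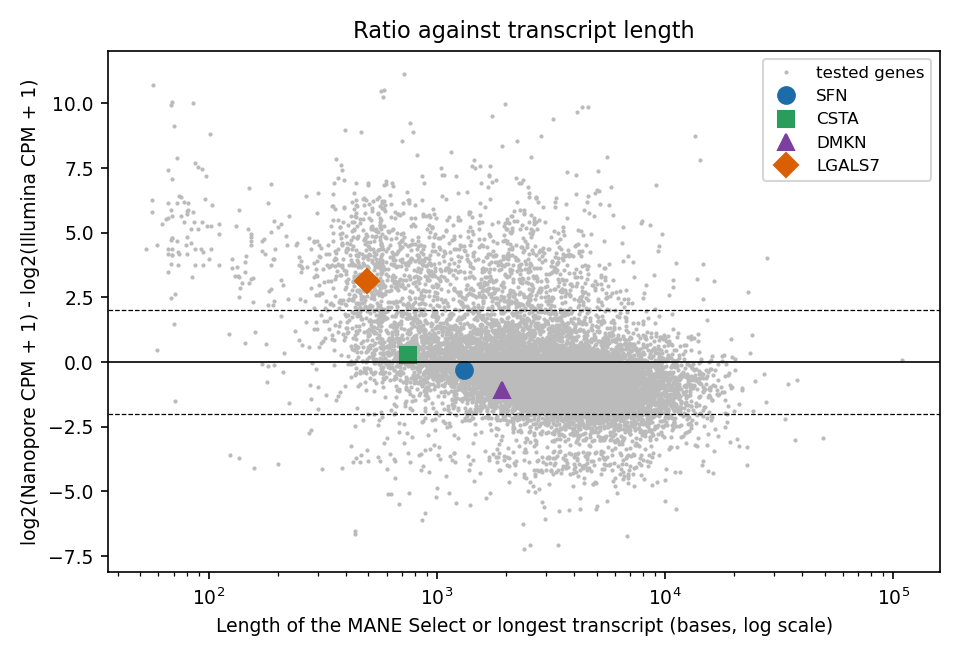
Log2 ratio of Nanopore over Illumina (CPM + 1) against transcript length (log axis) for 12414 tested genes (grey; those with an annotated length) and the 4 tested members, with dashed lines at a 4-fold ratio. LGALS7 at 3.15 lies above the upper line, and CSTA, SFN and DMKN lie between the lines at 0.27, −0.30 and −1.06.

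**Figure D4:**
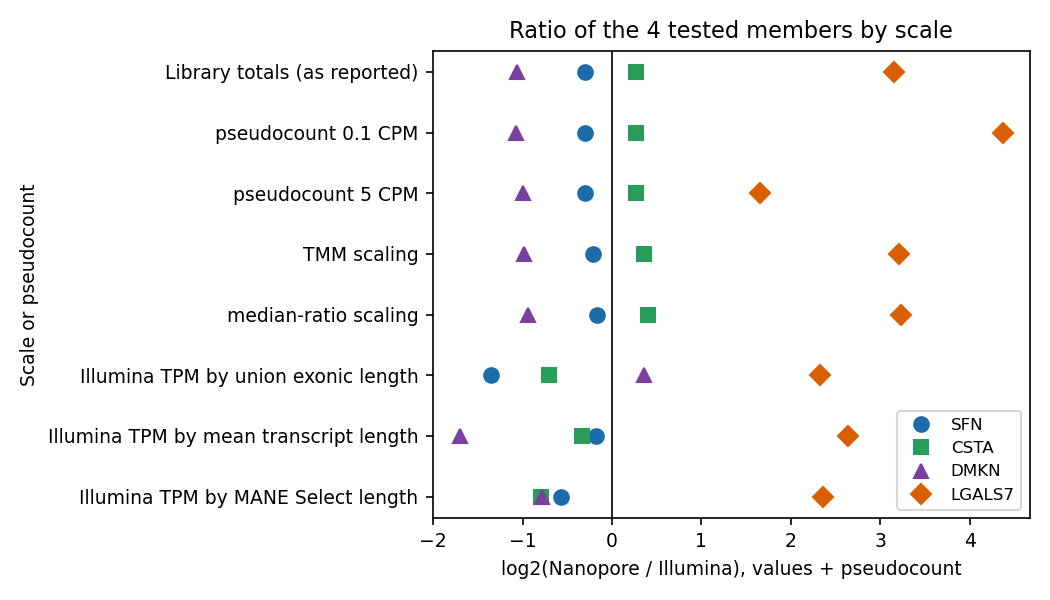
Log2 ratio of Nanopore over Illumina for SFN, CSTA, DMKN and LGALS7 under 8 scales and pseudocounts, 1 row each. CSTA lies above 0 in the 5 rows without division by length and below 0 in the 3 TPM rows, and DMKN lies above 0 only with union exonic length.

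The members' families and pathway partners added 120 further genes in 10 lists, of which 80 had Illumina counts and 46 had Nanopore counts. Over all protein-coding genes these shares were 78.3% and 59.2%. Of the 34 that could be tested, 2 were 4-fold higher by Nanopore (KRT10 and OVOL2) and 0 by Illumina, against 12.9% and 7.31% of all tested genes. By the adjusted p alone the numbers were 5 and 8, against 20.2% and 27.2%. KRT10, a keratin of suprabasal epidermis, had 124 CPM in the Nanopore library and 20.1 CPM in the Illumina library, a log2 ratio of 2.57 (exact adjusted p = 1.24e-21). OVOL2, an epithelial transcription factor, had 119 and 4.30 CPM, a log2 ratio of 4.50 (exact adjusted p = 9.82e-49). OVOL2, like LGALS7, reached the minimum mean of 5 CPM only through its Nanopore level, so the direction of its difference follows from the filter. A ratio of 4-fold does not follow from it for OVOL2, at 4.30 CPM by Illumina, as it does for LGALS7. OVOL2 shares its locus with SNX5, on the same strand, which had 55 Nanopore counts beside the 48 of OVOL2, and KRT10 overlaps the antisense gene KRT10-AS1, with 9 Nanopore and 4420 Illumina counts. The part of these overlaps in the ratios was not tested.

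Within the SPRR family of 10 genes, 3 had Illumina counts and their sum was 0.0678 CPM. SPRR2D had 1 Nanopore and 3 Illumina counts, and 7 genes were listed at 0 by Illumina. Of 30 cornified envelope genes, 19 had Illumina counts, and 6 were tested, of which 0 were called 4-fold in either direction. Periplakin (PPL), which links the envelope to keratin filaments, had 32.2 CPM by Nanopore (18.8 to 55.2), against 38.9 CPM in the Illumina library, with an exact adjusted p of 0.721. Of the 6 suprabasal epidermis markers, LORICRIN and DSG1 were listed at 0 in both libraries, CASP14 had 2 Illumina counts, FLG 36 and KRT1 70, each with no Nanopore count. KRT10 differed from these, with 50 Nanopore and 3856 Illumina counts. KRT10 was not the only keratin present in the separate list of 12 suprabasal keratins, of which 6 reached 1 CPM by Illumina. The highest there was KRT6A, with 293 CPM by Nanopore and 253 CPM by Illumina (exact adjusted p = 0.22).

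Of 8 transglutaminases, 3 had Illumina counts. TGM2, the widely expressed tissue transglutaminase, stood at 12.2 TPM by Illumina, above TGM1 at 2.32 TPM. TGM2 had 5 Nanopore counts, 12.4 CPM, against 38.4 CPM by Illumina, with an exact adjusted p of 0.0107. Among the galectins, LGALS1 stood at 4640 TPM, LGALS3 at 232 TPM and LGALS8 at 24.5 TPM, all above LGALS7B at 14 TPM as counted. Of the 50-base windows of LGALS7B, 87.8% recur in LGALS7, and the treatment of shared reads is not given. The order of LGALS8 and LGALS7B is therefore not settled. The exact adjusted p-values of LGALS1, LGALS3 and LGALS8 between the libraries were 0.532, 0.785 and 0.119.

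All 7 genes of the 14-3-3 family were detected by both libraries. By Illumina SFN, at 339 TPM, lay between YWHAZ at 348 and YWHAQ at 246 TPM, with YWHAE at 625 and YWHAB at 182 TPM. By Nanopore SFN had 228 CPM, YWHAZ 637, YWHAQ 407, YWHAE 226 and YWHAB 211 CPM. By the adjusted p alone, 4 of the 7 genes were lower by Nanopore and 0 higher, against 27.2% and 20.2% of all tested genes. The lowest log2 ratios were those of YWHAG (−1.95, exact adjusted p = 5.54e-25) and YWHAE (−1.85, exact adjusted p = 2.21e-52). Among the cystatins, CSTA at 412 TPM and CSTB at 371 TPM were close by Illumina, and CST3, a secreted cystatin, stood at 113 TPM. CST3 was higher by Nanopore, at 191 against 57.0 CPM (log2 ratio 1.73, exact adjusted p = 1.99e-17).

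The promoters of the members share a sequence feature that the choice by symbol did not use. RefSeq promoters (GRCh38.p14, 250 bases before to 50 after a start site) were matched for 8 members with 10 promoters, DMKN having 3; CSTA and TGM1 were not matched. Searched on both strands, the AP-1 motif TGANTCA, which is its own reverse complement, was present for 8 of these 8 members and in 9 of the 10 promoters. It occurs in 7.71% of all 35116 promoters of that length. AP-1 is the dimer of JUN and FOS proteins that is known to bind promoters of envelope genes. The matches are printed 5′ to 3′ with the motif in capitals, to show their flanks. The matches of IVL, SPRR1A, SPRR1B and SFN begin 123, 108, 141 and 170 bases before the start site.
SFN: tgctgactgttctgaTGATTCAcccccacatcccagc
IVL: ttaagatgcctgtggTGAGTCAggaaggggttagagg
SPRR1A: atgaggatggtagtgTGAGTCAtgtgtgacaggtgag
SPRR1B: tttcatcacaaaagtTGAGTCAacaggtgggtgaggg
KRTDAP: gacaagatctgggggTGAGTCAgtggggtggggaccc
DMKN: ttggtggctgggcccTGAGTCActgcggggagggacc
LGALS7: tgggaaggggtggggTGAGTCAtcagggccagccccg
LGALS7B: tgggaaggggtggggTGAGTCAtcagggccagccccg
They lie at chr1:26862964-26863000 (SFN), chr1:152908408-152908444 (IVL), chr1:152983958-152983994 (SPRR1A) and chr1:153031047-153031083 (SPRR1B), all on the plus strand. The others lie at chr19:35490525-35490561 (KRTDAP), chr19:35513720-35513756 (DMKN) and chr19:38773557-38773593 (LGALS7) on the minus strand, and at chr19:38789126-38789162 (LGALS7B) on the plus strand. A further promoter of DMKN and a further site of SPRR1B also held a match. Since all matched members had the motif, its presence could not be compared with their levels. Among the other genes of the 10 lists, 19 of the 87 with a promoter (21.8%) had the motif: 4 of 6 SPRR genes, 9 of 22 other envelope genes, 3 of 13 kallikreins and inhibitors, 2 of 11 lipid enzymes, 1 of 12 regulators and none of the galectins, transglutaminases, cystatins, keratins and 14-3-3 genes.

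The E-box CAGGTG, to which Snail is known to bind, was searched on both strands in the same promoters. It was present for 6 of the 8 members (SFN, LGALS7, LGALS7B, SPRR1A, SPRR1B and DMKN), in 7 of the 10 member promoters, and in 20.6% of all promoters. LGALS7 and LGALS7B have near-identical promoters and are not separate cases. The TATA box TATAAA was present for IVL, KRTDAP and SPRR1A, in 3 of the 10 member promoters, and in 11.5% of all promoters. The galectin-7 promoters are printed over the 266 bases in which they align without a gap, with the 4 differing bases in capitals. Any part of these bases in the split of counts between the copies was not tested. They lie at chr19:38773470-38773735 on the minus strand and chr19:38788984-38789249 on the plus strand.
LGALS7: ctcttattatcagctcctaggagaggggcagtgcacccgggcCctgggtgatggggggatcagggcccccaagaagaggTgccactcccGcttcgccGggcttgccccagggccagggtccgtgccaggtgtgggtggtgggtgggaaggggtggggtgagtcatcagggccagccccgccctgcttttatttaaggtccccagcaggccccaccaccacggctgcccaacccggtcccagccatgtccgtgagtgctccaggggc
LGALS7B: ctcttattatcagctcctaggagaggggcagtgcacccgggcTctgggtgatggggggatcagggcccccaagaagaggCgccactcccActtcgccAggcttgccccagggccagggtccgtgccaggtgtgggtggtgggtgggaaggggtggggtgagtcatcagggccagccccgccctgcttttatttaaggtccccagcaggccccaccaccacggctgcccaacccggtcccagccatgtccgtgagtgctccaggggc
A match describes these letters only, and no binding was measured.

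IVL, SPRR1A and SPRR1B belong to the epidermal differentiation complex, a cluster of envelope genes on chromosome 1. Between TCHHL1 and LORICRIN (152084141 to 153262124, hg38) the tables hold 45 protein-coding genes. Of these, 33 were listed at 0 in both libraries, 12 had Illumina counts and 1 (SPRR2D) had a Nanopore count. The 45 genes together had 536 Illumina counts, 2.80 CPM. Per length, LCE3D, a late cornified envelope gene, had 1.09 TPM (83 Illumina counts), TCHH, which encodes trichohyalin, 0.358 TPM (304 counts) and IVL 0.111 TPM. The neighbours DMKN and KRTDAP on chromosome 19, with SBSN, form a smaller cluster of secreted keratinocyte proteins. There DMKN had 84.1 CPM by Illumina, SBSN 3.30 CPM (1 Nanopore and 632 Illumina counts) and KRTDAP 0 within 41.03 kb.

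**Figure D5:**
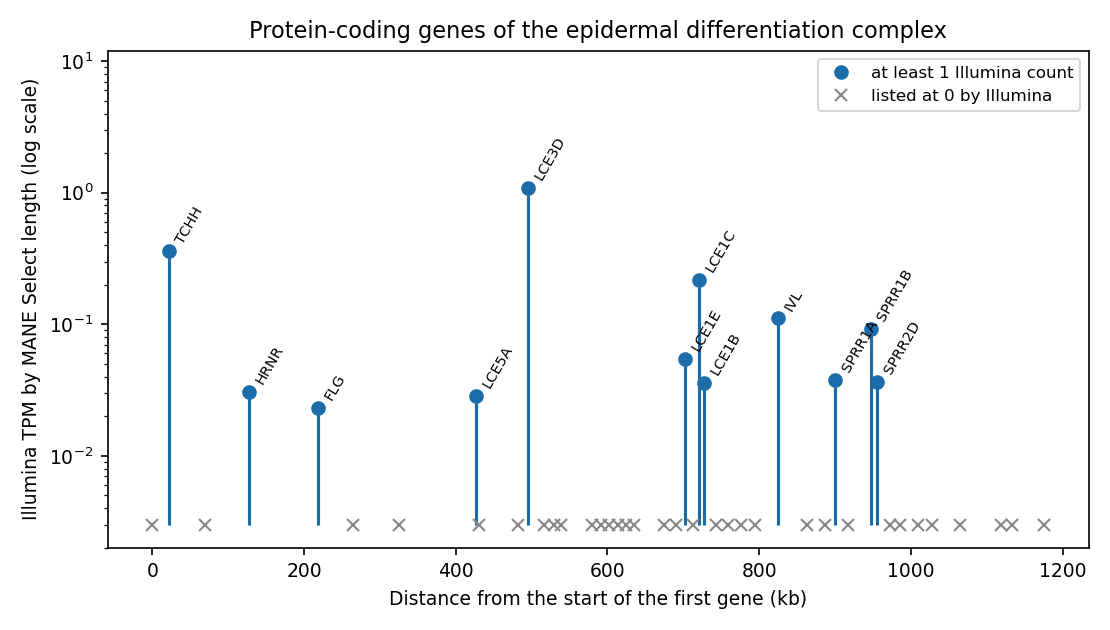
Illumina TPM by MANE Select length (log axis) of 45 protein-coding genes along the epidermal differentiation complex, by distance in kb from the start of TCHHL1. Crosses at the bottom mark genes listed at 0; IVL stands at 0.111 TPM, SPRR1B at 0.0929 TPM and LCE3D, the highest of the 45, at 1.09 TPM.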

How the data were processed

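The authors deposited whole-number counts per Ensembl gene for each library, without normalization. Per the submitters' processing notes, minimap2 2.11-r797, HISAT2 2.1.0 and featureCounts were used with hg38. Their options, the annotation release and the treatment of strand, of reads over several genes and of reads with several matches are not given in the sources used here. Per the file headers, the Nanopore column carries a suffix that no label explains. Whether Nanopore reads were corrected with short reads is not given either. If they were, the libraries are not independent and every p-value between them changes in meaning.

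Of 58735 identifiers, 58207 were in GENCODE release 44, which gave names, positions and lengths. Counts were divided by library totals (CPM). Genes whose mean over the libraries reached 5 CPM were tested by a two-sided exact conditional binomial test (scipy 1.17.1), adjusted by Benjamini-Hochberg, with a pseudocount of 1 CPM in ratios. Calls needed an adjusted p under 0.05 and a 4-fold ratio. No model with replicates could be fitted. TMM factors came from edgeR 4.0.16. Amplified reads are not independent molecules, so intervals cover counting error only.

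Members and lists were chosen with earlier results of these data known, and the motifs, length classes and regions after the values or sequences were seen. Besides the members, genes named by rule were list genes of at least 20 mean CPM, up to 4 a list, and genes overlapping a member. Others were named after their values were seen. They were OVOL2 and KRT10 overlaps, SPRR2D, SBSN, FLG, LORICRIN, DSG1, CASP14, KRT1, TCHH, LCE3D, GATA3, EPCAM, KRT19, ELF5 and YWHAG.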

Additional observations from a re-analysis of the deposited data

How the results depend on the processing

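LGALS7 was the 1 member called higher by Nanopore, and the number called fell to 0 with a pseudocount of 5 CPM, a minimum mean of 20 CPM, a minimum of 5 CPM by Illumina alone, or the paralog pairs summed. The number called higher by Illumina rose from 0 to 1 (DMKN) with the adjusted p alone or with a 2-fold ratio. By the adjusted p alone, 27.2% of all tested genes were higher by Illumina. Shares over all genes at a 2-fold ratio, another pseudocount or another minimum are not given here. The numbers of members called under those settings therefore cannot be read against all genes. The median log2 ratio of the tested members, −0.01, became 0.07 with TMM scaling, 0.11 with median-ratio scaling, −0.26 with TPM by mean transcript length and −0.67 with TPM by MANE Select length. It was −0.68 with a minimum mean of 1 CPM (6 members), and −0.30 with 20 CPM or with the Illumina minimum (3 members); the counts of members tested differ there by construction. CSTA reversed from 0.27 to −0.71, −0.34 and −0.80 with TPM by union exonic, mean transcript and MANE Select length, and DMKN from −1.06 to 0.36 with union exonic length. The summed share by Illumina, 0.0569%, became 0.102%, 0.0704% and 0.0838% with the same 3 lengths and 0.0564% without LGALS7 and LGALS7B. TMM and median-ratio scaling moved ratios up by 0.088 and 0.127, and CSTA then passed the threshold at 0.36 and 0.40 (exact binomial adjusted p = 0.0463 and 0.0265). For the 6 members with no Nanopore count, that depth allows levels up to 7.44 CPM. No paired analysis was possible because each group has 1 library, and no replicate could be left out.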
